A study of Mus musculus with 4 samples.

Results

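Gained regions inside gene bodies are stretches of chromatin that carried an ATAC-seq peak in both Snf5 CKO libraries, in neither control library, and within a protein-coding gene away from any gene start or end. Peaks of the 4 deposited lists on chromosomes 1 to 19 were joined into 1 region when they shared 1 bp or more. A merged region was kept for this account when it overlapped a RefSeq protein-coding gene and stayed clear of the 1 kb on either side of every annotated gene start and end, whatever the kind of gene. Of 62815 merged regions, 3122 were gained and 1068 of these met the rule. They made up 4.99% of the 21393 merged regions inside gene bodies, and lay in 884 host genes. Members were chosen by the peak calls of the same 4 libraries, so the presence of these regions in Snf5 CKO and their absence from the controls is the choice itself and carries no test.

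ATAC-seq marks open chromatin by letting a transposase insert sequencing adapters where DNA is accessible. The libraries came from female germ cells of C57BL/6 embryos at embryonic day 15.5, sorted in both groups on Oct4-EGFP, a fluorescent reporter of germ cells. The 2 groups were Control and Snf5 CKO, a knockout of Snf5, with 2 libraries each, called Control 1, Control 2, Snf5 CKO 1 and Snf5 CKO 2. The series title asks how the SWI/SNF remodeller acts on meiotic genes in the female germline. The labels name neither the driver of the deletion nor the alleles that the controls carry, and they do not say whether replicates came from separate embryos, so p-values over libraries measure only the spread between these samples, which may be technical. The sorted cells were measured in bulk, so a region open in few cells and one weakly open in many cannot be told apart.

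Snf5 is the product of Smarcb1, a core subunit of SWI/SNF, which uses ATP to slide or evict nucleosomes and is best known for keeping promoters and enhancers accessible. Open chromatin inside a gene body, away from the gene's ends, often lies in introns and can be an enhancer of the host or of another gene, an internal promoter, or an insulator site. Female germ cells of this stage are in meiotic prophase and have left the pluripotency-like programme of primordial germ cells.

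The lists held 39465 and 36730 peaks in Control 1 and Control 2, and 45422 and 28625 in Snf5 CKO 1 and Snf5 CKO 2, and the read depth behind them is unknown. Smarcb1 had a peak at a gene end in both controls and in neither Snf5 CKO library. Among 11 germ cell markers, 11 and 10 had a peak within 1 kb of a gene end in the controls and 9 in each Snf5 CKO library, with Tdrd1 open in both controls and in neither Snf5 CKO library. Ovarian supporting cell markers were open at 7 of 8 genes in every library, stroma markers at 3, 3, 3 and 1 of 5, and endothelium and blood markers at 2, 2, 1 and 1 of 5 in the order of the libraries above. A peak at a gene end does not show that the gene is transcribed, and the part of other cell types in the members was not tested. Of these marker genes only the germ cell gene Taf4b hosted a member.

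A small set of members sat on annotated transcript starts inside their host, and these are shown first because there the members coincide with an annotated promoter. RefSeq transcript starts of GRCm38.p6 were available for the chromosomes of 1034 members. Of these members, 13 (1.26%) overlapped the window from 250 bases before to 50 after such a start, against 77 of 2150 lost regions inside gene bodies (3.58%) and 818 of 3168 kept ones (25.8%). Lost here means a peak in both controls and in neither Snf5 CKO library, and kept means a peak in all 4 libraries. The 13 members touched 14 start windows, and 6 windows lay wholly inside a member. Printed below are the 250 bases upstream of those 6 starts and of a start of Gata3, of whose 300 bp window 289 bp lay in the member. Each sequence is given 5′ to 3′ in the direction of the transcript. Capitals mark matches, on either strand, to one of a few short motifs that were searched for. They are TATAAA, known as the TATA box, and CCAAT, a motif bound by the factor NF-Y. The others are GGGCGG, known as the GC box, and TGANTCA, the letters of the AP-1 site.
Map2k6: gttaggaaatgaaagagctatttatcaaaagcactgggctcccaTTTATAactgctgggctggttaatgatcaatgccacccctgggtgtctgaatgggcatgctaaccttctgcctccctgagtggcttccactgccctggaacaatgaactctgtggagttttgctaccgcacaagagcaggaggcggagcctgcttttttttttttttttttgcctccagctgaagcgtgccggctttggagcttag
Msl3l2: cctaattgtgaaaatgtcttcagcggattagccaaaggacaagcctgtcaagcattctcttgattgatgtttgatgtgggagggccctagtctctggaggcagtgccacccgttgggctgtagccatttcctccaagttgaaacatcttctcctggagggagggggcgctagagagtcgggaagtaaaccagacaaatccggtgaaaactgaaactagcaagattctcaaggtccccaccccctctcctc
Slc25a25: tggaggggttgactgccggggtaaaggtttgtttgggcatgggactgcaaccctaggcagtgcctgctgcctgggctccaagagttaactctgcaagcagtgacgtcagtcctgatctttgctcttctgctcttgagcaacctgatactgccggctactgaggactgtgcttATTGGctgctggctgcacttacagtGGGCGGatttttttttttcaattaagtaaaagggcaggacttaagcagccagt
Wiz: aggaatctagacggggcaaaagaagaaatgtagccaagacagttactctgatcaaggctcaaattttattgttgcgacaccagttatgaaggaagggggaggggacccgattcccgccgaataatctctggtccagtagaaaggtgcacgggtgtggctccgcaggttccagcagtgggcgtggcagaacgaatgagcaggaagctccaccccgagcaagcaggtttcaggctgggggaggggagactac
Wnt5b: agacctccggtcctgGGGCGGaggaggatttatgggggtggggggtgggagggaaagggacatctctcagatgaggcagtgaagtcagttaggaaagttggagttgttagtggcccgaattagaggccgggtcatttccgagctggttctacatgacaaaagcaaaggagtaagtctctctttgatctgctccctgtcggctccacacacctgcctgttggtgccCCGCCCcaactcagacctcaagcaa
Sall1: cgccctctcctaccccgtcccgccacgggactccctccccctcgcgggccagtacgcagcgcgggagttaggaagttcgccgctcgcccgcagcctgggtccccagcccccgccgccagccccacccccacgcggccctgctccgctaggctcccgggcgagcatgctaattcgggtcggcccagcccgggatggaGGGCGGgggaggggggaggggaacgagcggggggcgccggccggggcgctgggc
Gata3: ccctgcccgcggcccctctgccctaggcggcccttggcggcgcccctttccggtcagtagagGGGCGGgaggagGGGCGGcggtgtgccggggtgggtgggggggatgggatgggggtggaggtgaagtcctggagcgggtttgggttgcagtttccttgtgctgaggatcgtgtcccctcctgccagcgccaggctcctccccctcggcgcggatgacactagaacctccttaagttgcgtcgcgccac

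These stretches lie in mm10 at chr11:110479090-110479339 on the plus strand for Map2k6, chr10:56106667-56106916 on the plus strand for Msl3l2 and chr2:32424067-32424316 on the minus strand for Slc25a25. Wiz follows at chr17:32369423-32369672, Wnt5b at chr6:119449387-119449636, Sall1 at chr8:89042863-89043112 and Gata3 at chr2:9878601-9878850, all on the minus strand. Map2k6 encodes a kinase that activates p38, and the member at its internal start had fold enrichments over local background of 5.63 in Snf5 CKO 1 and 3.91 in Snf5 CKO 2. Msl3l2 is annotated inside the larger gene Tbc1d32, and its member had the highest values of the group, 6.17 and 4.83. Slc25a25, a mitochondrial carrier gene, had 4.71 and 4.14, and Wnt5b, which encodes a secreted WNT ligand, had 4.46 and 4.66. Wiz, a zinc finger partner of the G9a and GLP histone methyltransferases, had 4.01 and 4.08. The members at Sall1 and Gata3, both transcription factor genes, were weaker, with 3.16 and 3.68 at Sall1 and 2.72 and 2.9 at Gata3. A control peak lay only 0.073 kb from the Sall1 member, so open chromatin was already present beside it in a control. All of these hosts except Gata3 had an open gene end in all 4 libraries, and Gata3 had one in no library.

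In base composition the 7 printed windows were not alike. The Sall1 stretch held 78.4% G and C with a CpG ratio of observed to expected of 0.782, and the Gata3 stretch 70.0% and 0.633, while Map2k6 had 49.2% and 0.265. Over the upstream stretches of all 14 starts with a window touched by a member, the median was 55.0% G and C and the median CpG ratio 0.319. For several of these starts part of the stretch lies outside the member. The medians were 57.6% and 0.501 at lost, 62.0% and 0.724 at kept, and 52.4% and 0.374 over all 32851 starts in the table. The GC box was found in 4 of the 14 upstream stretches (28.6%), against 32.7% of all starts, 56.1% of those at lost and 63.0% of those at kept regions. TATAAA was present in 14.3% and CCAAT in 35.7% of the 14, against 12.4% and 33.8% of all starts. TGANTCA was in none of the 14 and in 6.75% of all starts, and with so few stretches none of these shares can be set apart from the whole.

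The fold enrichment of the members, as the authors' peak caller gave it for each peak, was near the middle of the Snf5 CKO 1 list and below the middle of the Snf5 CKO 2 list. In Snf5 CKO 1 it ran from 1.95 to 9.32 with a median of 4.23, where the whole list had a median of 4.14. In Snf5 CKO 2 it ran from 2.02 to 8.42 with a median of 3.94, below the list median of 4.43, and the median member sat at the 31.5th percentile of that list against the 53.1st of Snf5 CKO 1. Kept regions inside gene bodies had medians of 4.68 and 4.46, and gained regions outside genes, which the rule leaves out, had 4.13 and 3.94, nearly the values of the members. Of the members, 671 (62.8%) had the higher fold in Snf5 CKO 1 and 377 reached a fold of 4 in both libraries, while 72 reached 5 in both. Across the 1068 members the folds of the 2 libraries had a Pearson correlation of 0.561 and a Spearman correlation of 0.474, a description over regions that share their libraries.

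**Figure D1:**
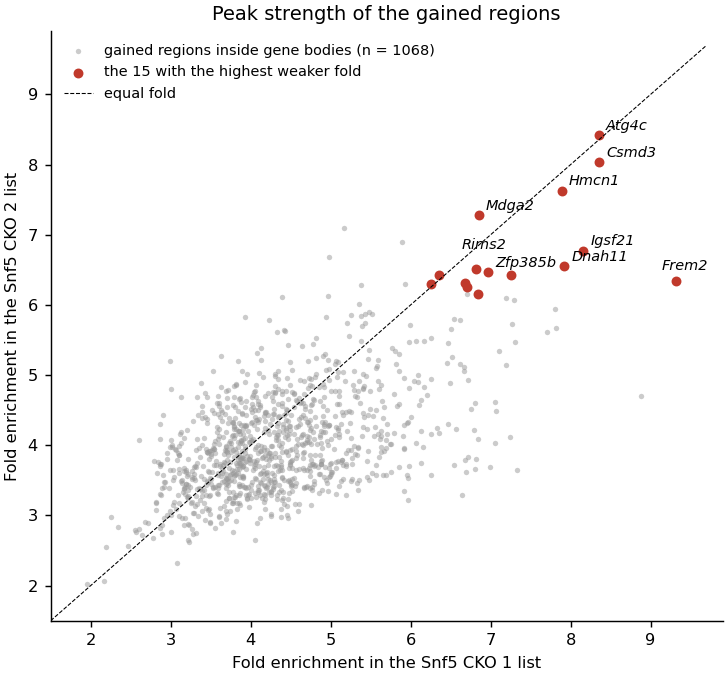
Fold enrichment of each of the 1068 members in the Snf5 CKO 1 list (x axis) and the Snf5 CKO 2 list (y axis), both as the authors' peak caller gave them; red points are the 15 members with the highest weaker fold and the dashed line marks equal values. Most points lie between 3 and 6 on both axes, and 11 of the 15 red points had the higher value in Snf5 CKO 1.

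Members were short. Their median width was 471 bp, from 204 to 1865 bp, against 597 bp for lost and 897 bp for kept regions inside gene bodies. In 1046 of them each Snf5 CKO library had a single peak, and the median length covered was 431 bp for Snf5 CKO 1 peaks, against 291 bp for those of Snf5 CKO 2, which were the shorter in 843 members (78.9%). The widest were in Psd3 (1865 bp), which encodes an exchange factor for Arf GTPases, in the phosphodiesterase gene Pde1c (1858 bp), the formin gene Fmn1 (1762 bp), Lhfp (1675 bp) and Akap6 (1653 bp), which encodes an anchor of protein kinase A. The libraries differed in how often a candidate recurred. Of 5541 gene-body regions with a peak in Snf5 CKO 1 and in no control, 1068 (19.3%) recurred in Snf5 CKO 2, whereas of 1451 such regions of Snf5 CKO 2 the same 1068 (73.6%) recurred in Snf5 CKO 1. Membership was thus limited mainly by which regions had a peak in the shorter Snf5 CKO 2 list.

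The strongest members, ranked by the weaker of the 2 folds, lay mostly in long genes. The first was in Atg4c, a cysteine protease gene of autophagy, at chr4:99200878-99201396, with folds of 8.35 in Snf5 CKO 1 and 8.42 in Snf5 CKO 2. Csmd3, which encodes a large transmembrane protein with CUB and sushi domains, followed at chr15:47746980-47747479 with 8.36 and 8.03. Hmcn1, an extracellular matrix gene, had 7.89 and 7.63 at chr1:150652815-150653235. Mdga2, whose product is a regulator of synaptic adhesion, had 6.85 and 7.28 at chr12:66591418-66592254. These 4 had similar values in both libraries, whereas Frem2, a basement membrane gene, had the highest single value, 9.32 in Snf5 CKO 1, against 6.34 in Snf5 CKO 2, at chr3:53650112-53650719.

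Further down the ranking, the synaptic immunoglobulin gene Igsf21 had 8.16 and 6.77 and the axonemal dynein gene Dnah11 7.92 and 6.55. Rims2, a gene of the presynaptic active zone, had 6.82 and 6.51, and the zinc finger gene Zfp385b 6.97 and 6.47. Rab27a, which encodes a GTPase of vesicle docking, had 7.25 and 6.43. Dmrt1, a transcription factor gene of the gonad that acts in germ cells, had 6.35 and 6.42 in a region at chr19:25524079-25524619. The ankyrin gene Ank2 had 6.68 and 6.31, the BBSome gene Bbs9 6.26 and 6.30, the metabolic enzyme gene Sugct 6.71 and 6.26, and the nuclear receptor coactivator gene Ncoa1 6.84 and 6.16. Among all members, 27.6% lay in hosts of 100 to 300 kb and 26.7% in hosts over 300 kb. Of the 15 hosts of the strongest members, 13 were longer than 100 kb and 9 longer than 300 kb. Atg4c and Igsf21 had an open gene end in both controls and in neither Snf5 CKO library, 11 had one in all 4 libraries, and Csmd3 and Ank2 had one in some libraries.

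At the lower edge of strength, a pair of members in Klhdc4 had folds of 1.95 and 2.02, and of 2.17 and 2.07, and a member of Atp6v1h, a subunit gene of the vacuolar proton pump, had 2.2 and 2.55. At the edge set by distance, members in Rnf213 and Ndrg4 lay 1001 bp from a gene end and the Sall1 member 1005 bp. Just outside it, gained regions in Hipk2, 963 bp from a gene end, and in Gpld1 and Mrs2, 958 bp from one, were left out, with folds of 4.93 and 4.30, and of 3.81 and 4.63.

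Merged regions inside gene bodies were gained about as often as merged regions of all places, 4.99% against 4.97%. Of the 3122 gained regions, 34.2% lay inside gene bodies (95% Clopper-Pearson interval 32.5% to 35.9%, which covers counting error only), 10.2% within 1 kb of a gene start or end and 55.6% elsewhere. Lost regions were inside gene bodies in 45.5% of cases, 2227 of 4897 (10.4% of all merged regions there), and kept regions in 17.7%, 3266 of 18408. Set against the losses, there were 0.480 gained regions for each lost region inside gene bodies, 0.245 near gene ends and 1.27 elsewhere. Inside gene bodies the gained share of gained and lost regions, 32.4%, became 44.7% with lists of the same length, a setting applied to this share after the data were seen.

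**Figure D2:**
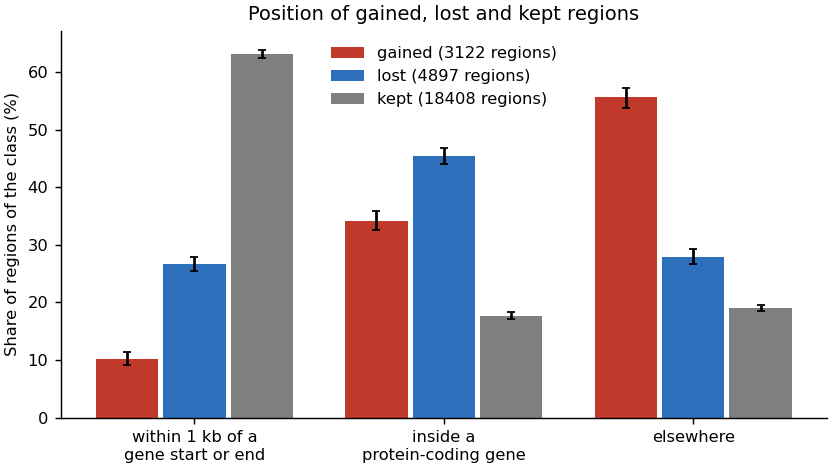
Share of gained, lost and kept regions (y axis, percent of each class) that lay within 1 kb of a gene start or end, inside a protein-coding gene, or elsewhere, over chromosomes 1 to 19; bars are shares and whiskers 95% Clopper-Pearson intervals. Gained regions inside gene bodies, the members, are the middle red bar at 34.2%.

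Over whole libraries, the share of all autosomal peaks that lay inside gene bodies was lower in the Snf5 CKO lists than in the control lists. It was 32.1% and 29.7% in the controls, 27.5% in the first Snf5 CKO library and 23.2% in the other, a mean of 30.9% ± 1.74 (SD, n = 2) against 25.4% ± 3.04 (SD, n = 2). The groups did not overlap, with a difference of -5.50 percentage points (exact permutation test over the libraries, two-sided, p = 0.333, the smallest p that 2 against 2 allows). The difference was -1.90 with lists of the same length (exact permutation p = 0.333), and -1.92 when all peaks needed a −log10 q of 3 or more, where the groups overlapped (exact permutation p = 0.667). Among peaks inside gene bodies, those in hosts over 300 kb made up 18.1% and 18.4% in the controls and 22.7% and 21.3% in Snf5 CKO (means 18.2% ± 0.198 and 22.0% ± 0.974, SD, n = 2, exact permutation p = 0.333). The Snf5 CKO lists include the members, so neither share is independent of the choice.

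Host genes of members were long. Their median length was 98.2 kb, with quartiles of 43.8 and 255 kb, against 17.5 kb for all 20665 autosomal protein-coding genes that were searched, of which 4.28% hosted a member. Long genes offer more sequence, and a base drawn at random from gene bodies lies in a gene of 150 kb at the median, beside 117 kb for the host of the median member. Hosts of lost regions, 8.66% of genes, had a median of 69.4 kb and those of kept regions 66.5 kb. The share of genes with a member rose with length, from 0.259% of genes under 10 kb and 1.94% of those of 10 to 30 kb to 6.29% at 30 to 100 kb, 13.8% at 100 to 300 kb and 36.2% above 300 kb.

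Counted per megabase of gene body, members varied little with gene length and losses varied more. Gained regions had 1.12, 1.27, 1.42, 1.07 and 0.961 region-gene pairs per Mb in the 5 length classes from short to long, around 1.15 over all genes. Lost regions fell from 5.75 per Mb in genes under 10 kb through 3.76, 3.14 and 2.49 to 1.23 in genes over 300 kb. The ratio of gained to lost regions was 0.200 in the shortest class and 0.792 in the longest, where 285 members met 360 lost regions. The latter depended on the lists: with lists of the same length 255 regions were gained and 215 lost in genes over 300 kb, while there were 340 and 774 without Control 1, 416 and 1186 without Control 2, and 1442 and 383 without Snf5 CKO 2, settings applied here after the data were seen. The longest hosts were Ptprd, a receptor phosphatase gene of 2270 kb, then Cntnap2, Lsamp and Lrp1b, which encode membrane proteins of neurons and other cells, and the synaptic scaffold gene Dlg2. Ptprd held a single member with folds of 3.15 and 3.50, and Lsamp and Dlg2 held 3 each. The shortest were the homeobox gene Hoxa7 at 2.95 kb, with folds of 2.79 and 3.78, then Ocstamp, Tedc2, Cd300ld3 and Parp3.

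**Figure D3:**
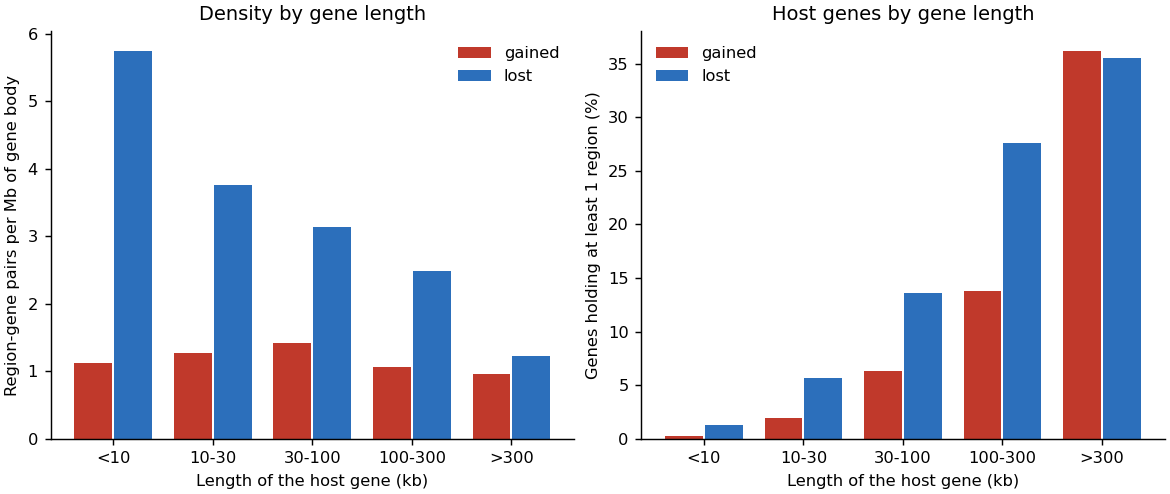
Left, region-gene pairs per Mb of gene body (y axis) for gained and lost regions in 5 classes of host length in kb (x axis); right, the percent of genes in each class that hold at least 1 such region. Gained regions stay between 0.961 and 1.42 per Mb while lost regions fall from 5.75 to 1.23 per Mb, and 36.2% of genes over 300 kb hold a gained region.

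Most hosts were genes whose ends were open with and without Snf5. Of the 884 hosts, 629 (71.2%) had a peak within 1 kb of a gene end in all 4 libraries, a state of 56.0% of all genes, which hold 66.0% of all gene-body sequence. Hosts without such a peak in any library numbered 144 (16.3%), against 32.5% of genes, which hold 20.8% of gene-body sequence. Among hosts of lost regions the shares were near these, 67.9% open in all libraries and 18.4% open in none. Per megabase there were 1.25 members in genes open in all libraries and 0.885 in genes open in none. Kept regions had the reverse order, 2.84 and 5.34 per Mb, and lost regions had 2.52 and 2.17. The order of the members was the same in each of the 5 length classes, closest in genes over 300 kb, where it was 1.03 against 0.878 per Mb. In 33 hosts (3.73%, against 3.07% of all genes) the gene end itself was lost, and in 3 (0.339%, against 0.184%) it was gained, shares near the background, the second from very few genes.

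Gains and losses met in some genes. Lost regions inside the gene body were present in 203 hosts (23.0%, against 8.66% of all genes), which is 11.3% of the 1789 hosts of lost regions. A kept region was also present in 339 hosts (38.3%, against 12.6% of all genes). These background shares rose with gene length, from 1.29% and 1.8% under 10 kb to 35.5% and 64.7% over 300 kb. The overlap was not adjusted for gene length. A single member was found in 734 hosts, 2 in 115, 3 in 29, 4 in 5 and 5 in Rims2. The members of Rims2 had folds from 2.34 to 6.82 in Snf5 CKO 1 and from 2.57 to 6.51 in Snf5 CKO 2, and no region of the gene body was lost. Some of them were close neighbours, at chr15:39242008-39242378 with folds of 2.46 and 2.57, and at chr15:39242701-39243989 with 2.34 and 2.83. Tiam2, which encodes an activator of the GTPase Rac, held 4 within 55.3 kb, with folds of 3.74 to 5.09 and 3.06 to 5.19. Gse1, Ttc28, Thsd7a and Etl4 also held 4 each, and in Thsd7a, which encodes a protein with thrombospondin repeats, 3 of the 4 were neighbours at chr6:12550134-12552171. Their folds ran from 3.42 to 4.88 in Snf5 CKO 1.

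Among hosts with at least 3 members, the densest was Stard3nl, a gene of an endosomal membrane protein, with 3 members in 38.1 kb, or 78.7 per Mb. Its folds lay between 3.58 and 4.20 in both libraries. Plagl1, an imprinted gene for a zinc finger transcription factor, held 3 in 40.9 kb with folds of 2.9 to 6.64 and 3.29 to 4.44. Stam, of the endosomal sorting machinery, and Grm4, a metabotropic glutamate receptor gene, held 3 each at 40.3 and 32.8 per Mb. None of these 4 genes held a lost or a kept region in its body. Diaph1, Mogat1, Armc9, Ppp2r5c and Pced1b had 21.6 to 32.6 members per Mb, and the last 4 of them held between 1 and 2 lost regions. Close neighbours lay at chr1:78600601-78601786 and chr1:78602028-78602562 in Mogat1. In Pced1b they lay at chr15:97373058-97374161 and chr15:97374299-97374803.

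Pluripotency and primordial germ cell genes held 7 members in 4 of 27 genes, 10.8 per Mb of gene body against 1.15 over all genes. They also held 7 lost regions, again 10.8 per Mb, against 2.45 over all genes and 5.75 in genes under 10 kb. Both kinds of region were dense in this list, whose genes have a median length of 9.24 kb and cover 0.645 Mb. Losses were also dense in the ovarian supporting cell list, at 9.08 per Mb. The hosts Esrrb (161 kb) and Prdm1 (91.4 kb) are long for this list, which was chosen with earlier results known. Prdm1, which encodes the BLIMP1 repressor that specifies primordial germ cells, had a member with folds of 5.17 and 7.09 at chr10:44520213-44521097 and another with 5.57 and 3.58. Esrrb, an orphan nuclear receptor gene of the pluripotency network, had 3 members with folds of 4.06 to 4.78 and 3.86 to 4.86. Tfcp2l1, another gene of that network, had 4.57 and 3.99, and Sall4, a zinc finger gene that maintains germ cell precursors, had 3.01 and 3.0. The count of 7 ran from 4 to 17 over the other settings, and was 4 when Snf5 CKO peaks needed a −log10 q of 3 or more, 12 without Control 2 and 17 without Snf5 CKO 2, alternatives added after the data were seen.

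In genes of meiosis and of the chromatin machinery, the density of members was 1.76 per Mb for the meiotic list, 1.11 for SWI/SNF subunits and 1.17 for other chromatin regulators, beside 1.15 over all genes. Of 50 meiotic genes, with a median length of 35.8 kb, 3 were hosts (6.00%, against 4.28% of all genes and 6.29% of those of 30 to 100 kb). Syce3, a gene of the synaptonemal complex central element, had the strongest member, with 5.2 and 5.74. Terb1, which attaches telomeres to the nuclear envelope in meiosis, had a pair with 3.93 and 4.27, and 3.82 and 3.91, and Ythdc2, an RNA helicase gene needed for the meiotic programme, had 5.47 and 4.43. The meiotic list held 1 lost region (0.439 per Mb, against 2.45 over all genes). Among 29 SWI/SNF subunit genes only Arid1b was a host, with 2 members at 4.92 and 4.83 and at 3.26 and 3.52. The SWI/SNF list held 12 lost regions, 6.65 per Mb against 2.45 over all genes and 3.14 in those of 30 to 100 kb. Of 46 other chromatin regulator genes 5 were hosts, with Prdm16 at 5.25 and 4.47, the histone demethylase gene Kdm5b at 4.09 and 4.59, the remodeller gene Chd2 at 4.03 and 4.55, and Mtf2, of Polycomb complex PRC2, at 5.13 and 3.49. The list of other chromatin regulators held 19 lost regions, 4.44 per Mb.

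Receptor and adhesion genes of neurons supplied many hosts, and most of them are long. Of 56 genes of synaptic adhesion and neuronal recognition 17 were hosts (30.4%), with 23 members, but per megabase these were 0.698, below the 1.15 of all genes. After Csmd3 the strongest were in Lsamp (7.82 and 5.67), the adhesion receptor gene Adgrl3 (4.86 and 4.83) and Dscaml1 (4.62 and 4.61). Cadherins and unclustered protocadherins had 11 hosts of 39 with 1.23 members per Mb, led by Pcdh15 (4.77 and 4.67), Cdh13 (3.94 and 4.44), Cdh12 (4.12 and 3.92) and the catenin gene Ctnna3 (3.89 and 4.46). Glutamate and GABA receptor genes had 10 hosts of 38 and 16 members, 1.39 per Mb, beside 6 lost regions, 0.521 per Mb against 2.45 over all genes. Their median length was 218 kb, and lost regions came to 2.49 per Mb in genes of 100 to 300 kb and 1.23 in those over 300 kb. Other lists of long genes were also below 2.45, from 0.593 in the large genes of common fragile sites to 1.85 in voltage-gated ion channels. Gria4, an AMPA receptor subunit gene, had 3 of the 16 members, with folds of 4.55 to 6.81 in Snf5 CKO 1 and 4.15 to 4.60 in Snf5 CKO 2. Grm3 had 4.28 and 4.64 and the GABA receptor gene Gabrb1 4.04 and 4.76.

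Voltage-gated ion channel genes, with a median length of 235 kb, had 5 hosts of 40. That is 12.5%, against 4.28% of all genes and 13.8% of those of 100 to 300 kb. Both their 5 members (0.461 per Mb) and their 20 lost regions (1.85 per Mb) were below the densities over all genes, 1.15 and 2.45 per Mb. Their strongest members were in Cacna2d2 (4.90 and 4.55), Kcnq5 (4.17 and 4.46), Kcnh7 (4.03 and 4.08) and Cacnb4 (3.92 and 4.29). Axon guidance genes had 5 hosts of 41 (12.2%) and 0.471 members per Mb, in Robo1 (5.07 and 5.21), Robo2 (4.65 and 4.43), Sema3a (6.13 and 4.20), Epha6 (4.04 and 3.77) and Sema3d. Receptor protein tyrosine phosphatases had 6 hosts of 20 (30%) and 0.778 per Mb, led by Ptprf (7.06 and 4.61), Ptpre (4.68 and 4.39), Ptprt (4.36 and 3.83) and Ptprb (3.75 and 3.98).

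Of 21 large genes, many of them known in human from common fragile sites, 10 were hosts (47.6%, against 36.2% of all genes over 300 kb). They had 21 members, 0.957 per Mb against 0.961 in all genes over 300 kb. The median length of the list was 932 kb, and 42.9% of its genes held a lost region, against 35.5% of genes over 300 kb. Lrp1b had 4.81 and 4.97, Thsd7a 4.79 and 4.64, and the transcription factor gene Sox6 4.45 and 4.96. Cyclic nucleotide phosphodiesterases had 4 hosts of 21 and 1.36 per Mb, with Pde11a at 6.10 and 5.01, Pde4d at 5.25 and 4.32, Pde1c at 5.19 and 3.89, and Pde7a at 4.21 and 3.61. Collagens and laminins, with a median length of 114 kb, had 7 hosts of 36. That is 19.4%, against 4.28% of all genes and 13.8% of those of 100 to 300 kb. Their 7 members and 7 lost regions both came to 1.42 per Mb, against 1.15 and 2.45 over all genes. The strongest members were in Col18a1 (5.57 and 4.50), Col4a2 (4.98 and 4.29), Lama4 (6.35 and 4.17) and Col19a1 (4.73 and 4.12). Oocyte growth and follicle genes had 1 host of 19, Taf4b, at 3.97 and 4.21, which is also the host among the 12 germ cell marker genes. No member lay in 18 genes of ovarian supporting cells, 18 of ovarian stroma and mesenchyme, 19 of endothelium and blood or 56 ribosomal protein genes. These lists cover 0.661, 0.561, 1.18 and 0.066 Mb of gene body, so at the 1.15 members per Mb of all genes a count of 0 is near the background. In the same order they held 6, 4, 3 and 0 lost regions, or 9.08, 7.13, 2.55 and 0 per Mb, against 2.45 over all genes and 3.76 in genes of 10 to 30 kb.

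**Figure D4:**
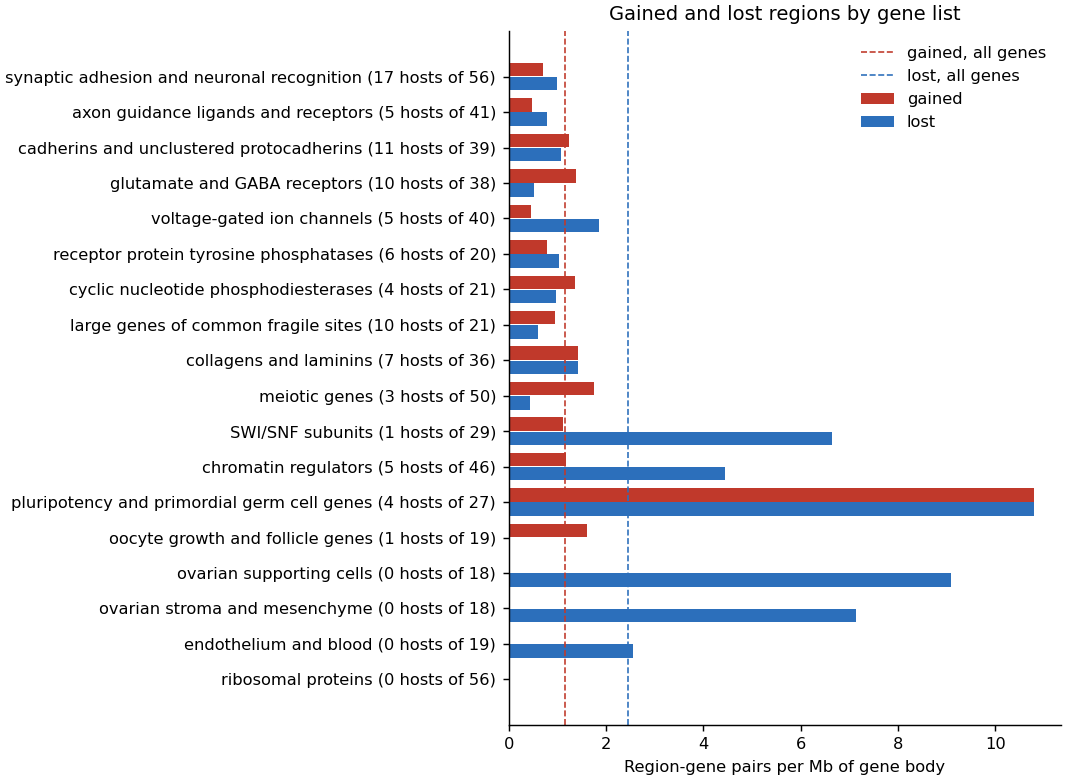
Gained and lost region-gene pairs per Mb of gene body (x axis) for 18 gene lists (y axis, with the number of host genes of gained regions); dashed lines mark 1.15 gained and 2.45 lost pairs per Mb over all genes. The pluripotency and primordial germ cell list stands at 10.8 for both, and several lists rest on few regions or little sequence. The dashed lines are not adjusted for gene length.

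Within the host, members lay deeper than kept regions and were not concentrated at its start. The nearest gene end was a median of 14.3 kb away, against 10.6 kb for lost and 9.15 kb for kept regions, and 19.2% of members were more than 50 kb from any gene end. Among region-gene pairs with a known strand, the median member sat at 53.9% of the way from the start to the end of the host (832 pairs), the median lost region at 53.7% (1797 pairs) and the median kept region at 40.9% (2615 pairs). The first of 3 equal parts of the host held 29.7% of members, 28.9% of lost and 42.5% of kept regions. Members and lost regions had similar values here and kept regions lay nearer the start, with no test, because the classes come from the same peak calls. The median distance to an annotated transcript start was 31.4 kb for members, 20.3 kb for lost and 12.7 kb for kept regions. None of the distances in kb was adjusted for host length, whose median was 98.2, 69.4 and 66.5 kb in the same order. A long noncoding RNA gene was overlapped by 43 members (4.03%).

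**Figure D5:**
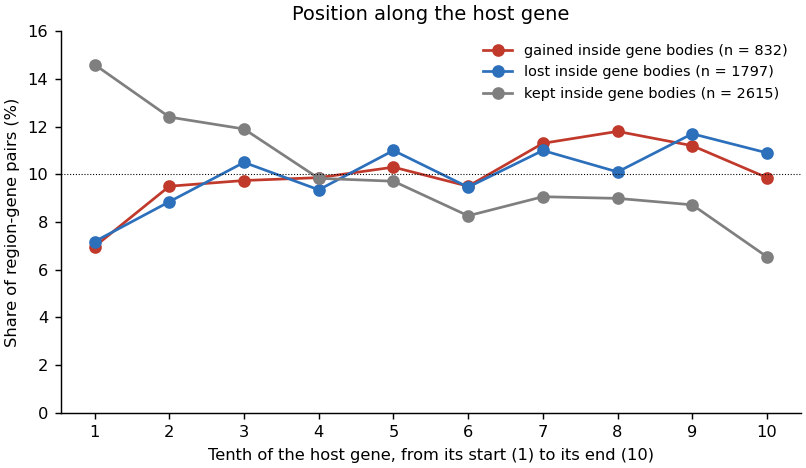
Share of region-gene pairs (y axis, percent) in each of 10 equal parts of the host gene (x axis, 1 at the start, 10 at the end) for gained, lost and kept regions inside gene bodies; the dotted line marks an even spread. Kept regions fall from 14.6% in the first part, where gained regions have 6.97% and lost regions 7.18%.

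By the rule no member overlapped a control peak, and 904 (84.6%) had one within 50 kb. The nearest control peak was a median of 11.8 kb away, from 0.065 to 573 kb, and 64 members (5.99%) had one within 1 kb, while 486 (45.5%) had one within 10 kb. Among the 15 strongest members, those in Bbs9 and Dnah11 lay 0.795 and 0.839 kb from a control peak, and that in Mdga2 lay 307 kb from one. Another member was within 10 kb of 115 members (10.8%), a kept region of 224 (21.0%) and a lost region of 76 (7.12%). Of lost regions inside gene bodies, 21.4% had a kept region within 10 kb, a share close to that of the members.

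Every autosome held members, at unequal density. Chromosome 17 had 1.81 per Mb of gene body, from 65 members, and chromosome 11 had 0.618, from 32. Lost regions did not follow the same order: chromosome 11 had 3.07 and chromosome 17 had 2.59 per Mb, so that the ratio of gained to lost regions ran from 0.201 on chromosome 11 to 0.699 on chromosome 17. The largest number, 83 members, was on chromosome 4.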

How the data were processed

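ATAC-seq peaks were compared in 4 libraries, grouped by the genotype given in the labels. Per the submitters' processing notes, reads of 50 bp went with build mm10, and the tools named, without their roles, were MACS2 2.2.7.1, Bowtie2 2.4.2, Picard 2.25.2, Trim Galore 0.6.5 and SAMtools 1.10. Not given in the sources used here: thresholds, duplicate handling and any shift of read ends. Broad peaks per library were deposited by the authors, each with a score, a fold enrichment (a linear ratio to local background), and −log10 p and −log10 q. The deposited score was not used further, and folds served to describe and rank peaks within a list. The −log10 q served as a minimum in alternative settings and to rank peaks for the lists of the same length. Read depth is unknown, so a missing peak may be an open site under the detection level.

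Regions were merged and classed in Python 3.11.15 with pandas 2.3.3, NumPy 2.4.6 and SciPy 1.17.1, figures were drawn with Matplotlib 3.10.9, and the merging was tested on simulated data. Genes, and sequences upstream of transcript starts, came from RefSeq GRCm38.p6; the gene table has no exons, so exonic and intronic members were not separated. A region in 2 genes counted once as a member and once per host. A member's fold was the highest among its peaks in that library. Members and the 19 gene lists were chosen with earlier results of these data known. Genes were named by rule: hosts of the 15 members with the highest weaker fold, the 10 hosts with most members and the 10 densest with at least 3, up to 4 hosts per list, the 5 widest members, the 5 longest and 5 shortest hosts, and those nearest the distance limit. Hosts of printed sequences, the weakest members and Sema3d were named after their values were seen, and 1 gene that the rule names is not reported here. Alternatives varied the −log10 q minimum, list length, overlap, merging distance, windows, chromosomes and libraries.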

Additional observations from a re-analysis of the deposited data

How the results depend on the processing

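The share of gained regions that lay inside gene bodies stayed within 33.2% and 35.9% under the alternatives other than a 5 kb window, where it was 26.6%, and leaving out a library gave 33.4% to 34.6%. When all peaks needed a −log10 q of 3 or more there were 710 members, and when this was asked only of Snf5 CKO peaks there were 509. It ranged from 1276 to 5551 when a library was left out, and was 1674 without Control 2 and 5551 without Snf5 CKO 2, since fewer libraries then had to meet the rule. The percent of genes with a member was 3.07 and 2.28 under those 2 minimums, 3.66 with 200 bp shared between the Snf5 CKO peaks, 3.31 with a 5 kb window, and 5.05 to 16.4 when a library was left out. The median host length was 132 kb with a 5 kb window, which removes short genes, and 77.3 to 97.9 kb when a library was left out. The difference in the share of peaks inside gene bodies kept its sign in all 11 alternatives, from -7.65 to -1.90 percentage points, being smallest with lists of the same length, with -7.65 to -3.35 when a library was left out. Nothing in the labels says that replicate numbers pair the libraries; with the replicate block the difference was -5.50 (exact p = 0.5, the smallest p that 2 pairs allow).

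Alternatives chosen after seeing the data set gained against lost regions. The gained share inside gene bodies was 38.2% when all peaks needed a −log10 q of 3 or more, 44.7% with lists of the same length, and 19.3% to 69.6% when a library was left out (19.3% without Control 2, 69.6% without Snf5 CKO 2). In hosts over 300 kb, where it was 44.2%, it became 48.4% and 54.3%, and 26.0% to 79.0% when a library was left out (26.0% without Control 2, 79.0% without Snf5 CKO 2). The cause of these shifts was not tested beyond the number of libraries required. With 2 libraries a group and unknown depth, a missing peak does not show closed chromatin, and no exact permutation test over libraries can go below p = 0.333.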
